A study of Homo sapiens with 3 samples.

Results

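Barcodes with few mitochondrial transcripts fell into a group rich in MALAT1, a long noncoding RNA that stays in the nucleus, and a group nearly without it. The rule took barcodes with at least 500 detected genes and under 5% of UMIs (counted RNA molecules) from the 13 MT- genes. Those with at least 5% of UMIs from MALAT1 are called nucleus-like here and those with under 1% cytoplasm-like. Of 9683 deposited barcodes, 884 met the gene and mitochondrial limits, and 864 of these lay on 1 of the sides, 166 nucleus-like and 698 cytoplasm-like. The names describe the rule and no nuclei were isolated, and the barcodes were chosen by their measured MALAT1 share, MT- share and number of genes, so the values of MALAT1 and the MT- genes are given as a description with no test.

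In a eukaryotic cell, transcripts are made, spliced and partly retained in the nucleus, while ribosomes translate finished mRNA in the cytoplasm. Long noncoding RNAs such as MALAT1 and NEAT1 accumulate at nuclear bodies, and transcripts with slowly removed introns wait in the nucleus, whereas mRNAs of ribosomal proteins and of the respiratory chain are short, stable and mostly cytoplasmic. Mitochondrial transcripts lie inside mitochondria, apart from both pools.

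The study made stem cell-derived alpha cells (SC-A), glucagon-secreting islet-like cells, from the human pluripotent stem cell line HUES8, an established embryonic line. Cells were dispersed enzymatically with TrypLE and profiled with the 10x Genomics 3' v3 kit. The series has 1 group of 3 replicate libraries with no other treatment or genotype, so each comparison sets barcodes of a library against other barcodes of the same library. Nothing in the labels says that the replicates came from separate differentiations, so the p-values measure only the spread between these libraries, which may be technical.

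Replicate 2 stood apart from the other libraries: it held no nucleus-like barcode. Its MALAT1 share was also lower outside the rule. The median over all deposited barcodes was 2.02%, 0.271% and 1.68% in replicates 1, 2 and 3. Among barcodes with at least 500 genes and 5 to 20% MT- UMIs it was 2.02%, 0.986% and 1.63%. Whether the absence of nucleus-like barcodes goes beyond this lower level was not tested. Replicates 1 and 3 held 92 and 74 nucleus-like barcodes, which was 32.06% (exact Clopper-Pearson 95% interval 26.69 to 37.79) and 49.66% (41.38 to 57.96) of their 287 and 149 low-mitochondrial barcodes. In replicate 2 the count was 0 of 448, for which the same exact interval allows a share of up to 0.82%. Cytoplasm-like barcodes numbered 189, 442 and 67 in replicates 1, 2 and 3, or 65.85%, 98.66% and 44.97% of the low-mitochondrial barcodes. Every interval and limit here covers counting error only. No nucleus-like barcode of 1 library occurred among those of the other and none was shared on the cytoplasm-like side, while over all deposited barcodes 1, 4 and 2 were shared between replicates 1 and 2, 1 and 3, and 2 and 3. No doublet caller was run and free RNA was not estimated.

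**Figure D1:**
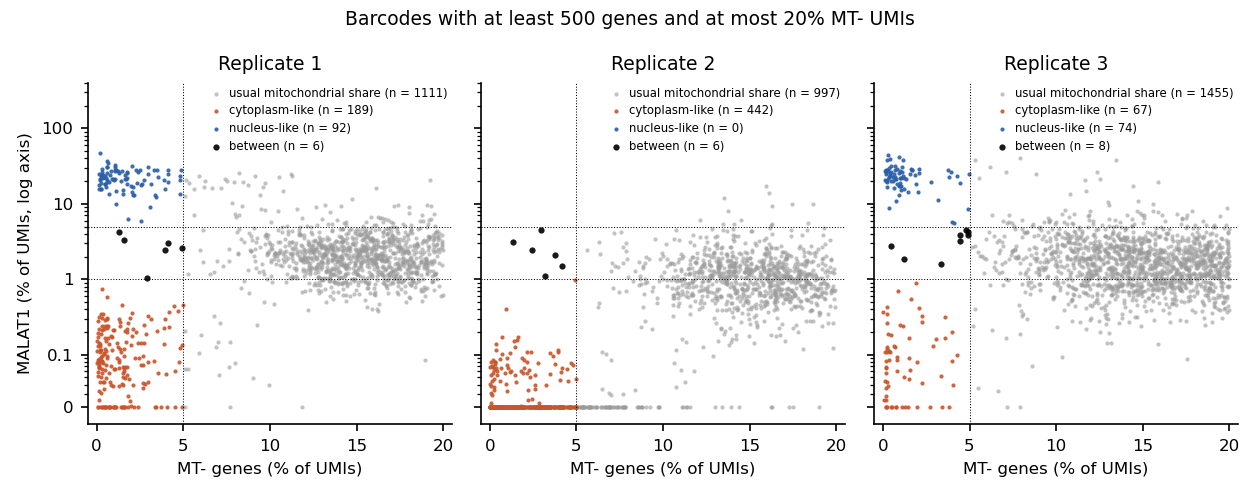
MALAT1 share of UMIs (percent, log axis with 0 at the bottom) against MT- share of UMIs (percent) for each barcode with at least 500 genes, in 3 panels, 1 per replicate. Blue points are the 92 and 74 nucleus-like barcodes of replicates 1 and 3, orange the 189, 442 and 67 cytoplasm-like ones, black those between, grey the barcodes with 5 to 20% MT- UMIs, and dotted lines mark the limits; replicate 2 has no blue point.

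The sides were far apart in MALAT1 and similar in total depth. The median MALAT1 share was 21.7% and 23.0% of UMIs in the nucleus-like barcodes of replicates 1 and 3, and 0.083%, 0% and 0.083% in the cytoplasm-like barcodes of replicates 1, 2 and 3. The median depth, which counts the UMIs of MALAT1 too, was 1664 and 1297.5 UMIs on the nucleus-like side and 1596, 1852.5 and 1648 UMIs on the cytoplasm-like side. Both sides were thus shallow beside the 1111, 997 and 1455 barcodes with at least 500 genes and 5 to 20% MT- UMIs, called usual barcodes here, whose medians were 15479, 20999 and 9997 UMIs. The median number of detected genes was 996.5 and 817 on the nucleus-like side and 764, 766.5 and 782 on the cytoplasm-like side.

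Few barcodes lay near the MALAT1 limits. The lowest MALAT1 share inside the nucleus-like side was 5.88% in replicate 1 and 5.595% in replicate 3, and the highest share under 5% was 4.241%, 4.56% and 4.555% in replicates 1, 2 and 3. On the other side, the highest share under 1% was 0.7376%, 0.9709% and 0.8895%, and the lowest at or above it was 1.025%, 1.094% and 1.608%. Only 6, 6 and 8 barcodes lay between the sides, with median depths of 16070, 5456 and 8496 UMIs. In replicate 2 the highest MALAT1 share of any deposited barcode was 17.27%, in a barcode outside the low-mitochondrial set. The other limits were less clear-cut: 20, 45 and 8 barcodes had 4 to 5% MT- UMIs and 11, 24 and 5 had 5 to 6%. Likewise 28, 46 and 14 lay within 50 genes above the gene limit and 41, 37 and 13 within 50 below it.

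Nuclear noncoding RNAs, splicing genes and long genes such as ABCC8 were higher in nucleus-like barcodes, and ribosomal protein, translation factor and respiratory chain genes were lower. UMIs were summed per library and side and compared within replicates 1 and 3, the libraries that hold both sides (n = 2 libraries). Each gene was tested by quasi-likelihood in edgeR with TMM scaling, the library as a block and Benjamini-Hochberg adjustment, and was called at an adjusted p under 0.05. With 4 sums there was 1 residual degree of freedom per gene. The spread was taken from all genes together, and the spread of a single gene had no weight. The same holds for the comparisons with usual barcodes below. The size of each p-value thus rests on this shared spread. For ABCC8 the edgeR adjusted p was 4.3e-14, and 1.8e-05 from the same sums with no block. Of 3470 genes tested, 1645 were higher in nucleus-like barcodes, which is 47.4%, and 1159 were lower, which is 33.4%. Called in either direction were 80.8% of the genes, so a call by itself sets no gene apart. Leaving out a library, with no block since 1 sum is left on the nucleus-like side and is assumed to vary like the others, gave 501 higher and 660 lower genes without replicate 1 and 1841 higher and 2180 lower without replicate 3.

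Scaling moved every fold change. TMM brings the bulk of genes of the sums compared to a common level, while plain library size leaves the levels as they are. Under plain size the median log2 ratio of all genes tested was 2.16 in place of 0.83, a shift of 1.33. Higher genes then made up 74.7% of calls (2170 higher, 735 lower) in place of 58.7%. The log2 ratios below are those with TMM, and the levels per library are in CPM, the UMIs of a gene in each 1000000 UMIs of the sum with MALAT1 and the MT- genes left out of the total, so a ratio of levels is larger than the fitted ratio by that shift. A gene needs UMIs on at least 1 side to be tested: 1010 of the 3470 genes had at most 10 UMIs on the cytoplasm-like side of replicates 1 and 3 and 325 had at most 10 on the nucleus-like side, so the shares called are not shares of all genes.

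The mitochondrial limit bore on many calls. With the limit at 10% in place of 5%, 54 of the named genes kept direction and call, 26 lost the call and none reversed. Lost among the lower genes were RPL30 (-2.53, adjusted p = 0.0854) with RPL27A, RPL23A and RPS3, EEF1B2 (-2.04, adjusted p = 0.0597), FAU, TPT1, COX6B1 (-1.9, adjusted p = 0.0648), GCG, FTL, GAPDH (-1.62, adjusted p = 0.207), PCSK1N, SEC61B, SSR4, SNHG7 and S100A10, and among the higher genes JPX (0.69, adjusted p = 0.346), SYT7, MEIS2, NKX2-2 and DUSP1.

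**Figure D2:**
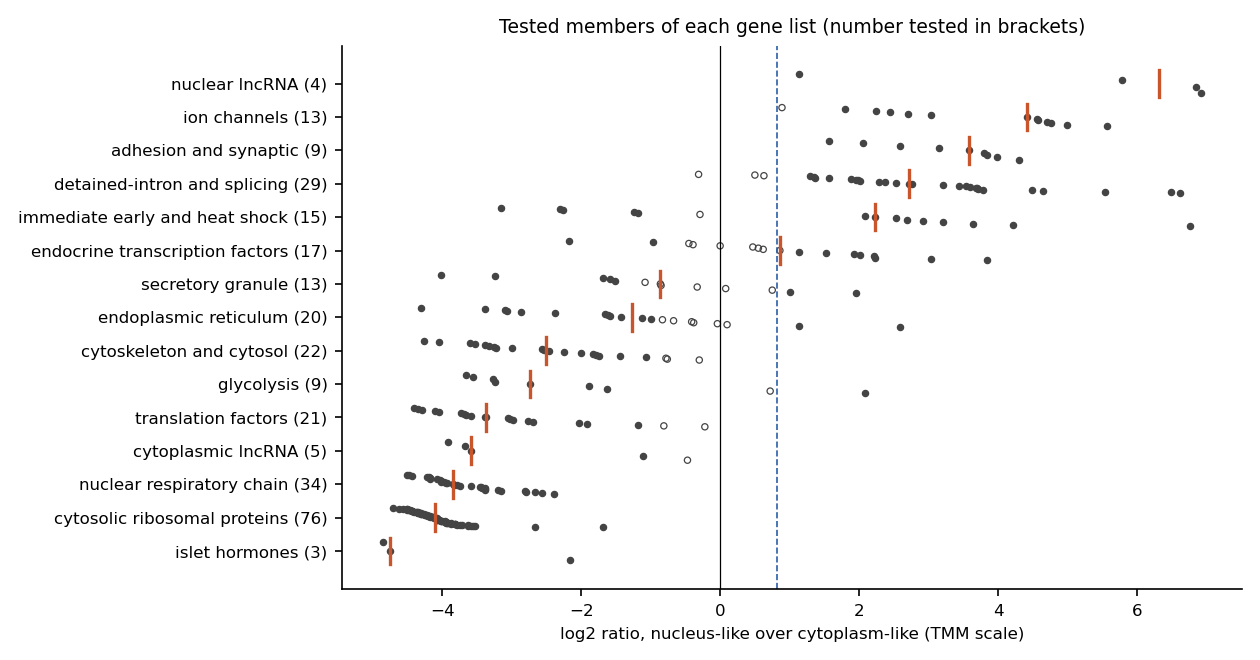
Log2 ratio, nucleus-like against cytoplasm-like with TMM scaling, of the tested members of each gene list; filled points passed an adjusted p of 0.05, orange bars are list medians and the dashed blue line is the median of all 3470 genes (0.83). The nuclear noncoding RNAs (median 6.31), ion channels (4.41) and adhesion genes (3.58) lie to the right of the line, and the ribosomal protein (-4.1), respiratory chain (-3.84) and hormone genes (-4.75) to its left.

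Nuclear long noncoding RNAs other than MALAT1 had the highest list median. Of 16 listed genes 12 were matched by symbol and 4 were tested, NEAT1, KCNQ1OT1, FTX and JPX. All 4 were higher, with a median log2 ratio of 6.31 beside 0.83 over all genes, and 3 of them had at most 10 UMIs on the cytoplasm-like side, so they entered the test through the side where they were high. The other 8 were not tested: each had between 0 and 11 UMIs on the nucleus-like side, and MEG3 and MEG9, imprinted noncoding RNAs, had 0 UMIs on both sides, which allows up to 3.

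NEAT1, the scaffold of nuclear paraspeckles (chr11:65422774-65445540, plus strand, GRCh38), stood at 1063.1 and 881.2 CPM in the nucleus-like sums of replicates 1 and 3. In the cytoplasm-like sums it stood at 5.24, 11.6 and 0 in replicates 1, 2 and 3, from 2, 11 and 0 UMIs. The sides did not overlap in any library, and the log2 ratio was 6.85 ± 0.7 (SE, edgeR adjusted p = 4.0e-19). Of the 134 NEAT1 UMIs on the nucleus-like side of replicate 1, 16.42% came from 1 barcode.

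KCNQ1OT1, the imprinted RNA transcribed antisense within KCNQ1 (chr11:2608328-2699994, minus strand), stood at 1523.3 and 1785.3 CPM on the nucleus-like side. On the cytoplasm-like side it had 2, 1 and 1 UMIs, or 5.24, 1.06 and 7.96 CPM. Its log2 ratio was 6.92 ± 0.71 (SE, adjusted p = 3.5e-19), and the pooled ratio of levels over replicates 1 and 3 was 275.7 with an exact 95% counting interval of 93.6 to 1343.6. KCNQ1 introns cover the same stretch of the chromosome on the opposite strand, and whether any of their reads were counted here was not tested.

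FTX and JPX are neighbouring noncoding genes of the X-inactivation centre. FTX (chrX:73946555-74293574, minus strand) stood at 1213.9 and 961.3 CPM on the nucleus-like side and at 10.5, 8.47 and 7.96 on the cytoplasm-like side, a log2 ratio of 5.78 ± 0.63 (SE, adjusted p = 2.9e-17). JPX was far less divided, at 325.3 and 343.3 against 76.0, 60.3 and 71.6 CPM, with a log2 ratio of 1.14 ± 0.42 (SE, adjusted p = 0.00998). NEAT1, KCNQ1OT1 and FTX thus had at most 11 UMIs in any cytoplasm-like sum, while JPX was present on both sides.

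The 3' kit primes cDNA from runs of A with an oligo(dT) primer, so stretches of A inside these RNAs are where such a primer could also anneal. The longest run of A in the single-exon transcript of MALAT1, NEAT1 and KCNQ1OT1 is shown here in capitals within 30 bases, 5′ to 3′ on the transcribed strand, from the GENCODE 29 transcripts on GRCh38.
MALAT1, chr11:65506090-65506119, plus strand: tctagcttAAAAAAAAAAAAAgcaaaagat
NEAT1, chr11:65440839-65440868, plus strand: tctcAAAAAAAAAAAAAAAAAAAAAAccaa
KCNQ1OT1, chr11:2610716-2610745, minus strand: AAAAAAAAAAAAAAAAAAAAAAAAAAAAAg
The runs are 13, 22 and 29 bases long. The one in MALAT1 lies 359 bases before the end of the 8708-base transcript, and those in NEAT1 and KCNQ1OT1 begin at base 18046 of 22743 and base 89250 of 91667. Where reads began was not analysed here, so the runs are a description of the sequence.

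ABCC8 encodes SUR1, the regulatory subunit of the ATP-sensitive potassium channel that ties membrane voltage to metabolism in islet cells. The gene (chr11:17392498-17476879, minus strand, GRCh38) spans 84.4 kb, of which 12.6 kb is exonic, and has up to 39 exons in a transcript. ABCC8 stood at 1459.8 and 972.8 CPM in the nucleus-like sums of replicates 1 and 3, from 184 and 85 UMIs. In the cytoplasm-like sums it stood at 23.6, 26.5 and 31.8, from 9, 25 and 4 UMIs. The lowest nucleus-like level was above every cytoplasm-like one, and the log2 ratio was 4.56 ± 0.56 (SE, edgeR adjusted p = 4.3e-14). The pooled ratio of levels was 49.2 with a counting interval of 28.3 to 93.6. Over the alternative settings the log2 ratio lay between 2.83 and 6.61, and it passed the test under each.

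The difference was spread over many barcodes. ABCC8 had at least 1 UMI in 68.48% and 60.81% of nucleus-like barcodes and in 4.762%, 5.43% and 4.478% of cytoplasm-like ones. In the deeper usual barcodes these shares were 85.42%, 84.65% and 66.94%. After each barcode was thinned to 500 UMIs, 38.04% and 32.43% of nucleus-like barcodes kept an ABCC8 UMI, beside 1.587%, 1.131% and 0% of cytoplasm-like and 11.61%, 11.43% and 8.11% of usual ones. No barcode held more than 5.882% of the ABCC8 UMIs of a nucleus-like sum. Whether the few UMIs of the cytoplasm-like side came from free RNA was not tested.

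KCNJ11, the neighbouring gene, encodes the pore of the same channel. It had 1 and 2 UMIs on the nucleus-like side and 2, 4 and 0 on the cytoplasm-like side, too few to be tested. The pooled ratio of 3.57 has a counting interval of 0.408 to 42.7, so a difference for the pore subunit was not detectable at this depth.

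Within the nucleus-like side the ABCC8 level was lower in the few barcodes with the least MALAT1, from 3 UMIs in each library. Barcodes of the low-mitochondrial set were binned by MALAT1 share. In replicate 1 ABCC8 stood at 23.75 CPM under 0.5%. At 5 to 10% it stood at 348.1 (4 barcodes, 3 UMIs) and at 10% or more at 1541.4. In replicate 3 the same bins gave 32.56, 190.3 (4 barcodes, 3 UMIs) and 1145.1. The middle bin also had an intermediate ribosomal protein level, 150731.0 and 157797.9 CPM, beside 272128.2 and 287981.8 in the lowest bin and 15166.9 and 14816.2 in the highest. Between the sides ABCC8 did not climb with the MALAT1 share in these replicates: it had 0 UMIs at 1 to 2% and at 2 to 5% in both, in sums of 11334 and 86747 UMIs in replicate 1 and 7184 and 52421 in replicate 3. In replicate 2 those bins gave 137.1 and 145.7 CPM, from 4 and 7 UMIs, beside 26.52 under 0.5%. The barcodes between the sides also differed in glucagon (GCG) mRNA. At least 1% of UMIs came from GCG in 0% of them in replicates 1 and 3 and in 100% in replicate 2. The part of cell type in these ABCC8 values was not tested. These bins are shown as values only, since each of those between 1 and 10% holds at most 6 barcodes.

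**Figure D3:**
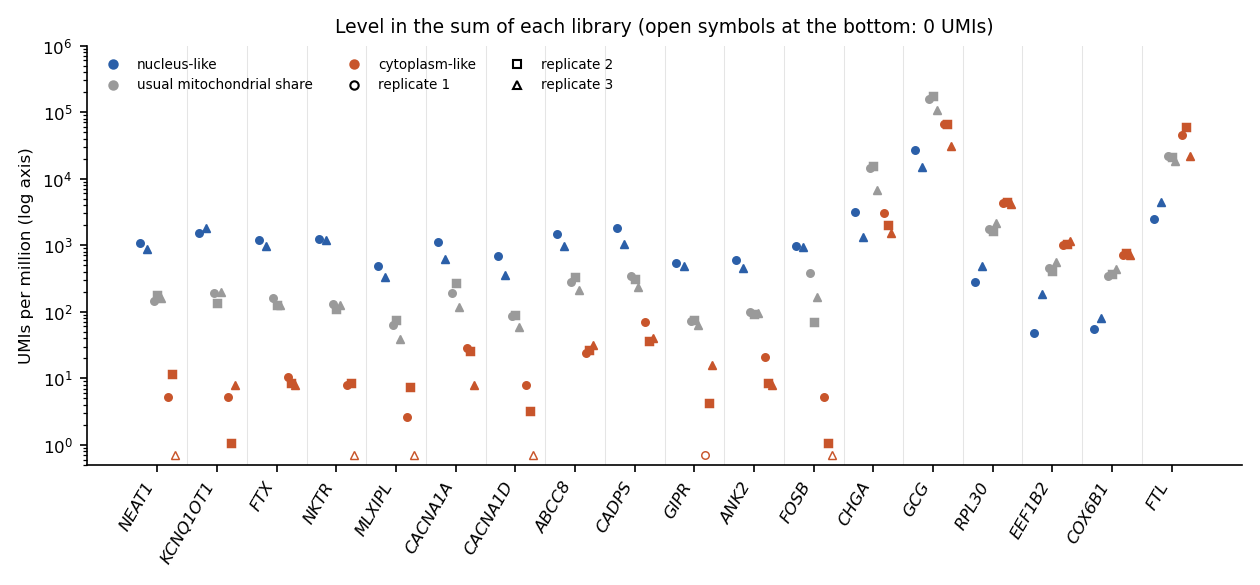
CPM (log axis) of 18 genes in each library sum of nucleus-like (blue), usual (grey) and cytoplasm-like (orange) barcodes, with a symbol per replicate and open symbols at the bottom for 0 UMIs. ABCC8 lies at 972.8 and 1459.8 in blue and at 23.6 to 31.8 in orange, with the usual sums between them at 209.4 to 334.9, while RPL30 runs the other way.

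Genes of splicing and of transcripts with detained introns were higher as a group. Of 30 listed genes 29 were tested, 26 were higher and none was lower. Their median log2 ratio was 2.72, beside 47.4% higher and a median of 0.83 over all genes. Of the 29, 8 had at most 10 UMIs on the cytoplasm-like side and entered the test through the side where they were high. NKTR, MLXIPL, CCNL1 and RBM5 are among these, so the count is a description. NKTR, a cyclophilin with a tail rich in serine and arginine, stood at 1237.7 and 1178.8 CPM against 7.86, 8.47 and 0, a log2 ratio of 6.61 ± 0.68 (SE, adjusted p = 4.0e-19). MLXIPL, which encodes the glucose-responsive factor ChREBP and whose mRNA is known to be retained in the nucleus of islet beta cells, stood at 491.9 and 331.9 against 2.62, 7.41 and 0 CPM (log2 ratio 6.49 ± 0.74, adjusted p = 9.7e-16). In both genes every nucleus-like level was above every cytoplasm-like level.

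The cyclin CCNL1 and the splicing regulator RBM5 completed the leading members. CCNL1 stood at 626.8 and 469.2 CPM against 7.86, 9.53 and 0 (log2 ratio 5.54, adjusted p = 1.3e-15). RBM5 stood at 1158.3 and 812.6 against 18.3, 25.4 and 23.9 (log2 ratio 4.64, adjusted p = 1.6e-14). Not every member was divided in this way. The splicing factor SRSF7 stood at 349.1 and 228.9 CPM against 149.3, 82.6 and 230.8, so its sides overlapped in range, and it did not pass the test (log2 ratio -0.31, adjusted p = 0.471).

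Ion channel genes, which set the excitability of islet cells, were higher in 12 of the 13 members tested, with a median of 4.41, and none was lower, beside 47.4% higher and a median of 0.83 over all genes. Only 13 of 34 listed genes were tested, and 8 of those had at most 10 UMIs on the cytoplasm-like side, so they entered the test through the side where they were high and the count is a description. The voltage-gated calcium channel CACNA1D stood at 690.2 and 354.8 CPM against 7.86, 3.18 and 0 (log2 ratio 5.57 ± 0.65, adjusted p = 1.9e-15). CACNA1C had a log2 ratio of 4.99, and the potassium channel KCNB2 and the sodium channel SCN8A had ratios of 4.76 and 4.7, the last pair from few UMIs. Named after their values were seen, the calcium channel CACNA1A stood at 1118.6 and 618.0 against 28.8, 25.4 and 7.96, and the potassium channel KCNJ6 at 841.0 and 686.7 against 23.6, 12.7 and 0.

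Adhesion and synaptic genes, many of them among the longest in the genome, were higher in 9 of 9 members tested (of 32 listed), with a median of 3.58, beside 47.4% higher and 0.83 over all genes. ANK2, a membrane scaffold, stood at 603.0 and 446.3 CPM against 21, 8.47 and 7.96 (log2 ratio 3.98 ± 0.53, adjusted p = 2.8e-12), and every nucleus-like level was above every cytoplasm-like one. The phosphatase PTPRD and the potassium channel partner DPP10 had ratios of 3.84 and 3.79. As with the ion channels, 7 of these 9 had at most 10 UMIs on the cytoplasm-like side and were tested only for their nucleus-like UMIs.

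Endocrine transcription factors were mixed. Of 17 tested, 8 were higher and 2 lower, beside 47.4% higher and 33.4% lower over all genes. The higher count and the median of 0.86 were thus near those of all genes (median 0.83). SOX6, MEIS2 and RFX3 had at most 10 UMIs on the cytoplasm-like side and entered the test through the side where they were high. SOX6 stood at 515.7 and 480.7 CPM against 21, 15.9 and 7.96 (log2 ratio 3.84 ± 0.53, adjusted p = 8.2e-12), and MEIS2, RFX3 and NKX2-2 had ratios of 3.03, 2.23 and 2.22. The alpha-cell factor IRX2 stood at 714.0 and 560.8 CPM against 269.9, 330.2 and 143.3 and did not pass (log2 ratio 0.62, adjusted p = 0.161). The lower pair was FEV (-2.18) and IRX1 (-0.97). With plain library size, 15 of the list were higher and 0 lower.

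Immediate early genes and heat shock genes, kept in 1 list, went opposite ways. Of 15 tested, 9 were higher and 5 were lower, and all 5 lower ones were chaperones. Over all genes 47.4% were higher and 33.4% lower. FOSB and ZFP36 had at most 10 UMIs on the cytoplasm-like side and entered the test through the side where they were high. FOSB, a subunit of the AP-1 factor, stood at 967.9 and 927.0 CPM against 5.24, 1.06 and 0 (log2 ratio 6.76 ± 0.7, adjusted p = 4.0e-19). EGR1 had a ratio of 3.64, the mRNA decay factor ZFP36 of 4.22 and the phosphatase DUSP1 of 3.2. The chaperones HSPE1 (-3.16), HSP90AB1 (-2.31) and HSPA8 (-2.26) were lower, as were HSP90AA1 (-1.24) and HSPD1 (-1.18) with TMM. On plain library size 3 of the list were lower: HSP90AA1 in replicate 3 stood at 1304.7 CPM on the nucleus-like side and 1241.7 on the cytoplasm-like side, and its pooled ratio of 1.04 has a counting interval of 0.86 to 1.26.

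Genes of the cytosolic ribosome were lower throughout. All 76 of the ribosomal protein genes tested (of 77) were lower, with a median log2 ratio of -4.1, beside 33.4% lower over all genes. Together they held 2.44% and 4.06% of UMIs in the nucleus-like sums, 27.2%, 27.9% and 28.8% in the cytoplasm-like sums, and 11.3%, 10.8% and 13.5% in the usual sums. RPL30, a protein of the large subunit, stood at 277.7 and 492.1 CPM against 4288.8, 4403.3 and 4091.3 (log2 ratio -4.5 ± 0.64, adjusted p = 3.1e-11). RPL27A, RPL23A and RPS3 had ratios of -4.7, -4.62 and -4.57.

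Translation factors ran with the ribosome: 19 of 21 tested were lower and none was higher. Their median was -3.37, and 33.4% were lower over all genes. The elongation factor EEF1B2 stood at 47.6 and 183.1 CPM against 1013.9, 1025.7 and 1170.1 (log2 ratio -4.41 ± 0.56, adjusted p = 2.3e-13). FAU, which encodes a ribosomal protein fused to a ubiquitin-like domain, had a ratio of -4.1, and TPT1 had -4.29. With plain library size 1 member of the list was higher.

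The nuclear-encoded respiratory chain was lower in all 34 members tested (of 35 listed), with a median of -3.84, beside 33.4% lower over all genes. COX6B1, a subunit of cytochrome c oxidase, stood at 55.5 and 80.1 CPM against 720.5, 753.6 and 716.4 (log2 ratio -4.43 ± 0.55, adjusted p = 9.0e-14). NDUFS5 of complex I had a ratio of -4.5, and ATP5F1E of the ATP synthase and COX8A had -4.47 and -4.22. These mRNAs are made from nuclear genes and translated in the cytosol, unlike the MT- transcripts used to choose the barcodes, whose median share was 1.19% and 0.918% of UMIs on the nucleus-like side and 0.985%, 1.15% and 0.816% on the cytoplasm-like side.

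Noncoding RNAs that are exported to the cytoplasm were lower in 4 of 5 members tested, with a median of -3.58. Over all genes 33.4% were lower. ZFAS1, a snoRNA host RNA found with ribosomes, stood at 111.1 and 91.6 CPM against 778.1, 853.1 and 756.2 (log2 ratio -3.91 ± 0.53, adjusted p = 3.6e-12). SNHG8 and EPB41L4A-AS1 had ratios of -3.67 and -3.58. SNHG7 was at -1.11 with TMM (adjusted p = 0.0239), and its direction turned with plain library size to 0.21. NORAD, the cytoplasmic sponge of Pumilio proteins, stood at 119.0 and 114.4 against 86.5, 52.9 and 71.6 CPM and did not pass the test (log2 ratio -0.47, adjusted p = 0.318). Noncoding RNAs thus lay on both sides of the comparison.

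Cytoskeletal and abundant cytosolic genes were lower in 19 of 22 tested (median -2.5), beside 33.4% lower over all genes. The ferritin light chain FTL stood at 2499.1 and 4394.7 CPM against 45856.7, 60469.4 and 21881.5 (log2 ratio -4.26 ± 0.92, adjusted p = 1.0e-05), and tubulin TUBA1B had a ratio of -3.6. Of 9 glycolytic genes tested, 7 were lower, 1 was higher and 1 did not pass (median -2.74). The shares over all genes were 33.4% lower and 47.4% higher. GAPDH stood at 230.1 and 503.6 CPM against 1792.0, 1681.9 and 2610.8 (log2 ratio -3.66, adjusted p = 5.0e-10), and the higher member was ENO2, the neuronal enolase (2.09, adjusted p = 2.1e-04). With plain library size 1 gene of the cytoskeleton and cytosol list and 2 of the glycolysis list were higher.

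Hormone mRNAs were lower on the nucleus-like side, but glucagon less so than the others by its fitted ratio. GCG stood at 26744.4 and 15003.8 CPM against 65370.0, 66899.7 and 30414.5, and the sides did not overlap. Its log2 ratio was -2.16 ± 0.9 (SE, adjusted p = 0.0217), and over the alternatives it lay between -2.88 and -0.21. The call was lost in several of them, such as plain library size (-0.83, adjusted p = 0.265) and without replicate 1 and with no block (-2.88, adjusted p = 0.0704). INS stood at 190.4 and 22.9 against 2009.5, 2329.7 and 652.7 CPM (log2 ratio -4.75, adjusted p = 2.0e-13). SST stood at 261.8 and 0 against 2059.3, 1974.1 and 1042.7 (log2 ratio -4.85, adjusted p = 7.6e-14), and 45.45% of its nucleus-like UMIs in replicate 1 came from 1 barcode. The difference in ratio between GCG and the other hormones was not tested.

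Secretory granule genes divided weakly or not at all: of 13 tested, 2 were higher, 5 lower and 6 did not pass. Their median was -0.86. Over all genes 47.4% were higher and 33.4% lower, so the count of 5 lower genes is near that share. Chromogranin A, CHGA, stood at 3141.7 and 1327.6 CPM against 3041.7, 2032.3 and 1520.3 (log2 ratio -1.08 ± 0.53, adjusted p = 0.0506), and the sides overlapped. CHGB stood at 158.7 and 389.1 against 152.0, 108.0 and 151.2 and did not pass (log2 ratio -0.33, adjusted p = 0.455). The calcium sensor SCGN, a cytosolic protein, was lower (-4.01, adjusted p = 9.9e-13), as were PCSK1N (-3.24) and SCG5 (-1.68). The higher pair was the membrane fusion genes SYT7 (1.95) and SNAP25 (1.0). With plain library size 5 members were higher and 2 lower.

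Endoplasmic reticulum genes were mixed as well, with 2 higher, 12 lower and 6 not passed of 20 tested (median -1.27). The shares over all genes were 47.4% higher and 33.4% lower. With plain library size 6 of the list were higher and 6 lower. SEC61G, a small subunit of the translocon, stood at 15.9 and 91.6 CPM against 421.8, 430.8 and 525.3 (log2 ratio -4.31 ± 0.54, adjusted p = 9.4e-14), and SPCS1, SEC61B and SSR4 had ratios of -3.38, -3.09 and -3.06. The chaperone HSPA5 (BiP), whose mRNA is translated at the reticulum, stood at 150.7 and 286.1 against 91.7, 42.3 and 119.4 CPM and did not pass (log2 ratio -0.04, adjusted p = 0.929). HERPUD1, a stress-induced gene, was higher at 388.8 and 686.7 against 39.3, 47.6 and 39.8 (log2 ratio 2.59, adjusted p = 8.0e-08), as was SEC61A1 (1.13).

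Outside the lists, several genes had no UMI on the cytoplasm-like side of replicates 1 and 3. CCDC14, a centrosomal protein, stood at 420.5 and 389.1 CPM on the nucleus-like side and at 0, 12.7 and 0 on the other. Against a floor of 3 UMIs over both libraries it was at least 68.9-fold higher, and RIC3, a chaperone of acetylcholine receptors, at least 64.2-fold. POLR2J3, 1 of several near-identical copies of an RNA polymerase subunit gene so that its counts are uncertain, stood at 991.7 and 789.7 against 2.62, 3.18 and 0. The receptor for the incretin GIP, GIPR, named after its values were seen, stood at 547.4 and 480.7 against 0, 4.23 and 15.9 (log2 ratio 5.79 ± 0.67, adjusted p = 1.9e-15). GIPR had 0 and 2 UMIs on the cytoplasm-like side of replicates 1 and 3. Its place in the test thus came through the side where it was high, and its values are a description.

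In the other direction, PCP4, a small calmodulin-binding protein, had 0 UMIs on the nucleus-like side and stood at 110.0, 104.8 and 191.0 CPM on the cytoplasm-like side, at least 9.26-fold lower. COX17, a copper chaperone of the respiratory chain, stood at 15.9 and 45.8 against 704.8, 770.6 and 350.2 (log2 ratio -5.17, adjusted p = 5.0e-15). Its nucleus-like levels rest on few UMIs, so it entered the test through the cytoplasm-like side, where it was high. SNRPG, a core protein of the spliceosomal snRNPs, was lower as well (-5.15), although the splicing regulators listed above were higher, and so were GNG5 (-4.96) and S100A10 (-4.97), short mRNAs of signalling and membrane proteins.

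The genes of the sides differed in length, which the rule did not use. The 1645 higher genes had a median span of 79.5 kb, 9.26 kb of exonic sequence and 17 exons, the 1159 lower genes 12.7 kb, 2.99 kb and 6, and all 3470 genes tested 40.0 kb, 6.52 kb and 11. Of genes under 5 kb, 9.66% were higher and 81.6% lower. In genes over 200 kb the shares were 85.3% and 2.99%, with a steady change in the bins between. Without ribosomal protein genes the shares under 5 kb were 10.7% and 79.6%. All these shares are over genes that passed the count filter. Of the 3470, 1010 had at most 10 UMIs on the cytoplasm-like side and 325 had at most 10 on the nucleus-like side. Many genes thus entered through the side where they were high. The part of the filter in the shares by length was not tested.

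Exonic length and exon number divided the genes in the same direction as span, and the 3 measures go together, so their parts were not separated. Under 2 kb of exonic sequence 4.17% of genes were higher and 91.4% lower, and over 8 kb 79.0% and 4.43%. With 2 to 5 exons 18.7% were higher and 70.1% lower, and with more than 20 exons 85.1% and 1.38%. The 33 genes with 1 exon did not follow this, at 48.5% higher and 27.3% lower. Of 36 long intergenic noncoding genes tested, 28 were higher and 3 lower, and of 23 antisense genes 16 and 6. Genes spanning over 100 kb held 28.2% and 25.9% of UMIs in the nucleus-like sums, 5.68%, 4.79% and 6.12% in the cytoplasm-like sums and 10.3%, 9.72% and 10.5% in the usual sums. Whether intronic reads were counted is not given in the sources used here. Genes are not independent replicates, so these shares carry no test.

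**Figure D4:**
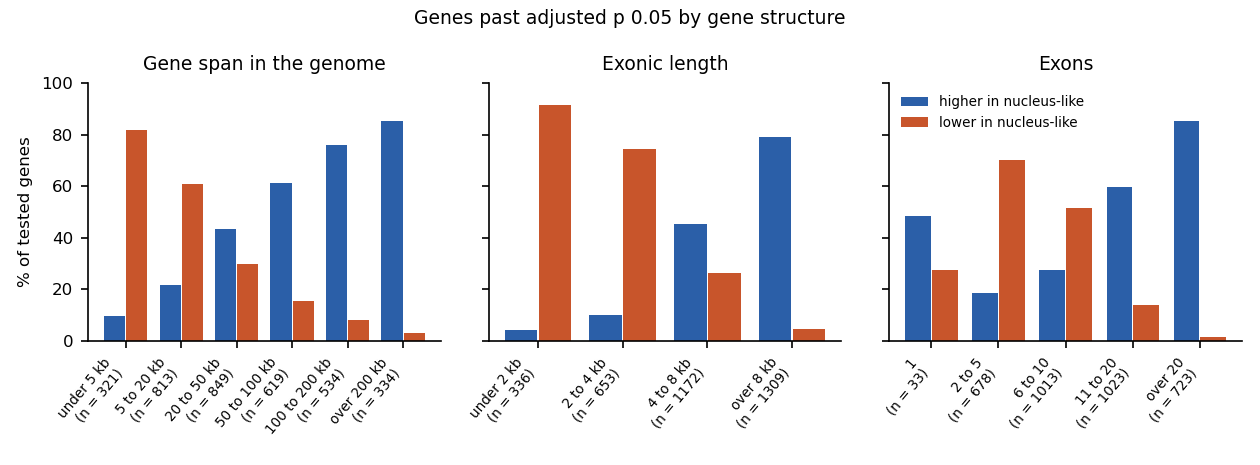
Percent of tested genes higher (blue) and lower (orange) in nucleus-like barcodes, by gene span, exonic length and number of exons. The higher share climbs from 9.66% under 5 kb to 85.3% over 200 kb while the lower share falls from 81.6% to 2.99%. Only genes that passed the count filter are included, and many of them entered through the side where they were high.

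Set against usual barcodes of the same libraries, each side moved away from them in its own direction. The comparisons with usual barcodes share those barcodes, so their values stand side by side and no overlap between them is read. Against usual barcodes, 13978 genes were tested for the nucleus-like side (replicates 1 and 3), of which 1350 (9.66%) were higher and 2786 (19.9%) lower, or 29.6% in all. For the cytoplasm-like side (replicates 1 to 3), 13467 were tested, with 2007 (14.9%) higher and 2690 (20%) lower, or 34.9% in all. Plain library size turned these splits to 4243 higher and 991 lower, and to 1287 higher and 4744 lower, with medians shifted by 1.17 and -0.47. Leaving out replicate 1, with no block, left 88 higher and 769 lower genes on the nucleus-like side. Without replicate 2 the cytoplasm-like side gave 440 higher and 838 lower, and without replicate 1 it gave 753 higher.

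ABCC8 stood at 278.5, 334.9 and 209.4 CPM in the usual sums. The nucleus-like side was above this by a log2 ratio of 1.14 ± 0.25 (SE, adjusted p = 6.5e-05) and the cytoplasm-like side below it by -3.01 ± 0.34 (adjusted p = 2.3e-15). The former did not pass without replicate 1 and with no block (0.58, adjusted p = 0.489). NEAT1 had ratios of 1.52 and -3.81, KCNQ1OT1 of 1.9 and -5.33, FTX of 1.76 and -3.43 and NKTR of 2.05 and -3.51, all past the threshold. JPX was higher on the nucleus-like side (0.84, adjusted p = 0.00323) and did not pass on the other (0.19, adjusted p = 0.629).

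The ribosome and the respiratory chain mirrored this. RPL30 had ratios of -3.54 and 1.57 to the usual sums, COX6B1 of -3.72 and 1.3, EEF1B2 of -3.44 and 1.54 and ZFAS1 of -2.92 and 1.61, all past the threshold. Of the ribosomal protein genes, 76 of 77 were lower on the nucleus-like side and 77 higher on the cytoplasm-like side. The respiratory chain counted 35 lower of 35 on the former and 33 higher of 35 on the latter. Splicing and detained-intron genes counted 22 higher and 0 lower of 30 on the nucleus-like side, and 1 higher (SRSF7) and 19 lower of 30 on the cytoplasm-like side. Over all genes 9.66% were higher and 19.9% lower on the nucleus-like side, and 14.9% and 20% on the cytoplasm-like side.

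Several secretory and reticulum mRNAs were below the usual sums on both sides. CHGA stood at 14289.6, 15416.8 and 6689.1 CPM in usual barcodes, and its ratios were -3.42 (adjusted p = 2.5e-07) on the nucleus-like side and -2.08 (adjusted p = 7.8e-05) on the cytoplasm-like side. CHGB had ratios of -2.4 and -1.78, CPE of -3.41 and -1.51, and HSPA5 of -1.88 and -1.74, all past the threshold. Of 21 granule genes, 15 were lower and none higher on the nucleus-like side and 13 lower and none higher on the cytoplasm-like side. Of 25 reticulum genes the counts were 21 lower and 1 higher, and 11 lower and 2 higher, and the rest did not pass. Over all genes 19.9% were lower on the nucleus-like side and 20% on the cytoplasm-like side. With plain library size the granule genes counted 3 higher and 10 lower on the nucleus-like side and 0 higher and 17 lower on the cytoplasm-like side. GCG was lower on the nucleus-like side (-3.86, adjusted p = 0.0336) and did not pass on the cytoplasm-like side (-1.13, adjusted p = 0.281), with usual levels of 155329.8, 174553.6 and 107845.7.

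Named immediate early genes were below the usual sums on the cytoplasm-like side, and on the nucleus-like side their place depended on the scaling. Of 21 immediate early and heat shock genes, 2 were higher (FOSB and ZFP36) and 8 lower on the nucleus-like side with TMM, and 9 higher and 3 lower with plain library size. Over all 13978 genes tested, 9.66% were higher and 19.9% lower with TMM, so the count of 2 higher is near that share. With plain library size 4243 of all these genes were higher and 991 lower. FOS stood at 1340.8 and 1281.8 CPM on the nucleus-like side, 60.3, 9.53 and 175.1 on the cytoplasm-like side and 486.4, 167.2 and 619.6 in usual barcodes. Its CPM on the nucleus-like side was thus above the usual level in both libraries, while its ratios to the usual sums with TMM were 0.1 (adjusted p = 0.845) and -2.57 (adjusted p = 1.4e-12). FOSB had ratios of 0.71 (adjusted p = 0.0221) and -5.87, ZFP36 of 1.04 (adjusted p = 5.2e-04) and -1.73, EGR1 of 0.44 (adjusted p = 0.186) and -2.85, and DUSP1 of 0.02 (adjusted p = 0.972) and -2.62.

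The same MALAT1 split was then made in usual barcodes, which the rule did not use, though they come from the same libraries. There 82, 14 and 85 barcodes had at least 5% MALAT1 and 152, 503 and 385 had under 1%. Of 10094 genes tested in all 3 libraries, 627 (6.21%) were higher with high MALAT1 and 472 (4.68%) lower, and 10.9% were called in all. Plain library size gave 2978 higher and 137 lower, or 95.6% of calls higher in place of 57.1%, with the median shifted by 0.49. Leaving out replicate 3 gave 384 and 263.

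**Figure D5:**
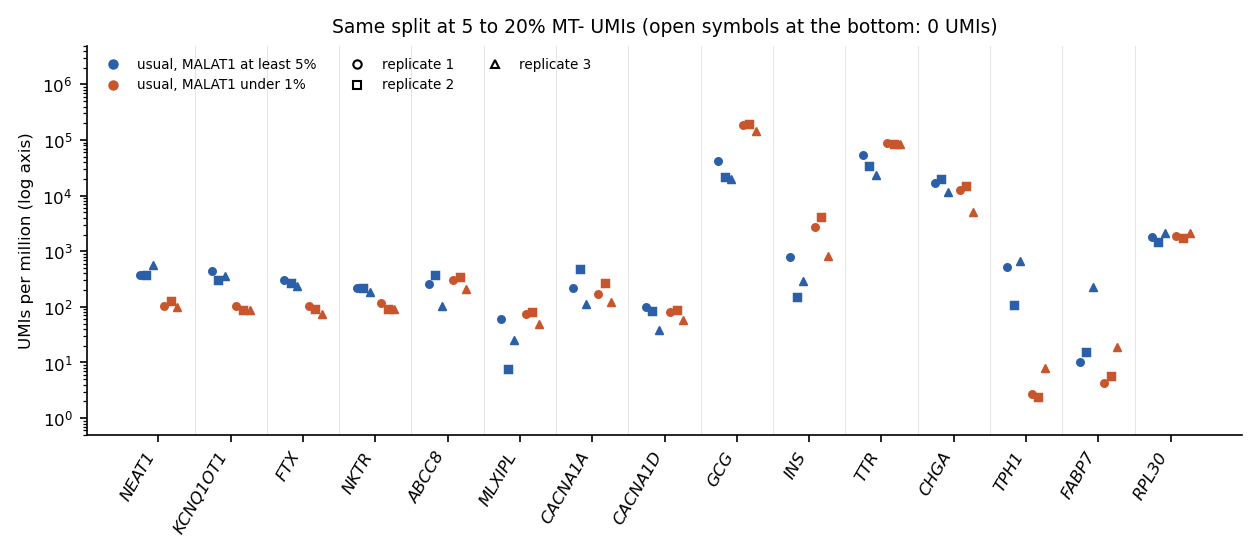
CPM (log axis) of 15 genes in usual barcodes (5 to 20% MT- UMIs) with at least 5% MALAT1 and under 1% MALAT1, with a symbol per replicate. NEAT1 and KCNQ1OT1 lie higher with high MALAT1 in each library, GCG lies lower in each, and ABCC8 overlaps.

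The nuclear noncoding RNAs were higher again, by smaller ratios. NEAT1 stood at 376.8, 380.6 and 565.9 CPM with high MALAT1 and at 101.8, 129.2 and 98.2 with low MALAT1 (log2 ratio 1.55 ± 0.2, edgeR adjusted p = 1.0e-05), and the groups did not overlap. KCNQ1OT1 stood at 434.9, 302.9 and 363.3 against 104.4, 87.9 and 88.4 (1.5 ± 0.17, adjusted p = 2.9e-06), and FTX had a ratio of 1.12 (adjusted p = 8.8e-05). Of 8 nuclear noncoding genes tested 6 were higher and none lower, with a median of 1.52 beside 0.0 over all genes. All 9 adhesion genes that passed (of 21 tested) were higher, 7 of 30 splicing and detained-intron genes were higher and 1 lower, and 19 of 77 ribosomal protein genes were lower. Over all 10094 genes 6.21% were higher and 4.68% lower. With plain library size the list counts were 17 adhesion genes higher, 27 splicing and detained-intron genes higher and 1 lower, and 3 ribosomal protein genes higher and 1 lower. Of all 10094 genes, 2978 were then higher and 137 lower.

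ABCC8 did not repeat its difference there. It stood at 260.6, 380.6 and 102.2 CPM with high MALAT1 and at 304.2, 345.9 and 212.5 with low MALAT1, so the groups overlapped and replicate 2 went the other way before scaling. The fitted log2 ratio was -0.86 ± 0.19 (adjusted p = 0.0045), and the call was lost with plain library size (-0.36, adjusted p = 0.166), with no replicate block (-0.83, adjusted p = 0.148) and without replicate 3 (-0.6, adjusted p = 0.102). MLXIPL was also lower (-1.26, adjusted p = 0.00373), at 59.6, 7.77 and 25.6 against 74.6, 80.9 and 48.8 CPM.

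Cell type markers moved with this split. GCG stood at 41536.4, 21684.3 and 19939.9 CPM with high MALAT1 and at 187371.7, 193662.3 and 145594.4 with low MALAT1 (log2 ratio -3.22 ± 0.34, adjusted p = 8.3e-07). The 8 alpha-cell markers summed to 99205.8, 60105.5 and 47738.5 against 281741.1, 284857.8 and 234710.2, and the 6 enterochromaffin markers to 761.0, 955.3 and 1025.9 against 158.8, 206.3 and 140.3. TPH1, the serotonin-synthesis enzyme of enterochromaffin cells, stood at 527.2, 108.7 and 666.3 against 2.66, 2.41 and 7.98. The 7 mesenchyme markers summed to 512.3, 1040.7 and 1716.0 against 73.0, 7.482 and 253.3. Among usual barcodes with at least 1% of UMIs from GCG, an alternative added after these values were seen that leaves replicate 2 out with 4 barcodes on the high side, 118 genes were higher and 91 lower. There NEAT1 and KCNQ1OT1 stayed higher (1.7 and 1.54) and ABCC8 was at -0.13 (adjusted p = 0.887).

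Between the nucleus-like and cytoplasm-like sides the cell type markers were as follows. All 8 alpha markers had UMIs in each sum, and they summed to 37938.8 and 24788.8 CPM on the nucleus-like side, 113165.4, 111591.2 and 57270.9 on the cytoplasm-like side, and 245032.3, 262506.5 and 183818.1 in usual barcodes. At least 1% of UMIs came from GCG in 86.96% and 54.05% of nucleus-like barcodes, and in 91.53%, 88.46% and 46.27% of cytoplasm-like ones. The 7 beta markers summed to 253.9 and 80.11 against 2119.5, 2426.1 and 700.5 with INS at 190.4 and 22.9 against 2009.5, 2329.7 and 652.7.

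Markers of other lineages varied between libraries. The 7 neural markers summed to 71.4 and 663.8 CPM on the nucleus-like side and 542.3, 14.82 and 1122.3 on the cytoplasm-like side, with 4 and 3 of them at 0 on the former. FABP7, the radial glia lipid carrier, stood at 442.8, 5.29 and 756.2 on the cytoplasm-like side. The mesenchyme markers summed to 15.87 and 1064.3 against 7.86, 3.175 and 310.4, highest in replicate 3 on both sides. The 8 proliferation markers summed to 15.87 and 103.0 against 311.8, 67.74 and 461.7. All 7 endothelial and blood markers were at 0 on both sides. The part of these cells in the gene differences was not tested. Among barcodes with at least 1% GCG on both sides, 1114 genes were higher and 675 lower of 2061, and ABCC8 had a log2 ratio of 5.11 (adjusted p = 1.1e-22).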

How the data were processed

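The authors deposited unnormalised UMI counts for every gene and barcode, made with Cell Ranger 4.0.0 against GRCh38, per the submitters' processing notes. Their gene annotation, cell-calling settings and treatment of intronic reads are not stated in the labels or file headers used here. Of 33538 features, 33456 were matched by gene identifier to GENCODE 29 for positions, gene types and exons.

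Counts were summed per library and side, where a side held at least 10 barcodes. MALAT1 and the 13 MT- genes were left out of sums and totals. Nucleus-like sums held 126045 and 87378 UMIs (replicates 1 and 3), cytoplasm-like sums 381689, 944743 and 125631, and usual sums 15225598, 17414686 and 12702709. The planned fit was for all 3 libraries, but replicate 2 made no nucleus-like sum and stayed out of the blocked comparison. Each pair of sums shares a library, which is the block. Tests used edgeR 4.0.16 (quasi-likelihood, TMM, filterByExpr) in R 4.3.3, with DESeq2 1.42.0 as an alternative. The SE was derived from the log2 ratio and the F statistic, as ratio over root F. Ratios of levels have exact conditional 95% intervals and shares have Clopper-Pearson intervals, all for counting error only. Code was tested on simulated data. Sums and figures were made in Python 3.11.15.

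Alternatives were other scalings, no filter, no replicate block, leaving out each replicate, other MALAT1, mitochondrial and gene limits, thinning to 500 UMIs, and, added after the data were seen, barcodes with at least 1% GCG and the comparisons with usual barcodes. The members and lists were chosen with earlier results of these data known. Named genes are the nuclear noncoding list, ABCC8, up to 4 members per other list with the largest ratio past the threshold, and, from genes in no list, at most 10 in each direction with 1 sign in all libraries and a mean of at least 100 CPM on the higher side. Y-linked genes and XIST were left out, and not every gene that the rule admits is printed. Named outside this rule after their values were seen were KCNJ11, CACNA1A, KCNJ6, SRSF7, IRX2, FEV, IRX1, FOS, the 5 chaperones, NORAD, ENO2, CHGA, CHGB, CPE, SNAP25, HSPA5, HERPUD1, SEC61A1, GIPR, TPH1 and FABP7.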

Additional observations from a re-analysis of the deposited data

Results flagged for a closer look

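For 10 named genes the MALAT1 split at usual mitochondrial share went, after TMM scaling, the opposite way in every library to the difference between nucleus-like and cytoplasm-like barcodes. The difference between the 2 comparisons was not tested. ABCC8 (log2 ratio -0.86) and MLXIPL (-1.26), both higher in nucleus-like barcodes, were lower with high MALAT1 in usual barcodes and passed the test there. In CPM, before scaling, ABCC8 was lower in 2 of 3 libraries and MLXIPL in 3 of 3. The other genes that were higher in nucleus-like barcodes were SYT7 at -0.54, CACNA1D at -0.52, DUSP1 at -0.52, SOX6 at -0.47, NKX2-2 at -0.24 and HECW2 at -0.21. Before scaling, CACNA1D, DUSP1 and SOX6 were lower in 2 of 3 libraries, SYT7 and HECW2 in 1 of 3 and NKX2-2 in 0 of 3, so the direction of the last 3 rests on the scaling. Lower in nucleus-like barcodes and higher with high MALAT1 in usual barcodes were GAPDH at 0.08 and LDHB at 0.73. LDHB passed the test in usual barcodes and GAPDH did not. Both were higher in 3 of 3 libraries before scaling.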

How the results depend on the processing

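For nucleus-like against cytoplasm-like barcodes (1645 higher, 1159 lower), plain library size gave 735 lower, DESeq2 524 higher, no filter on low counts 1743 lower, at least 1000 genes 580 higher and 216 lower, thinning to 500 UMIs 320 and 273, and at least 1% GCG 675 lower. Leaving out a replicate, with no replicate block, gave 501 to 1841 higher and 660 to 2180 lower. The fit with no replicate block, which keeps replicate 2, gave 1731 and 1192. In the lists, plain library size gave 1 translation factor higher, granule genes 5 higher and 2 lower, reticulum genes 6 and 6, transcription factors 15 and 0, 3 immediate early and heat shock genes lower, 2 glycolytic genes higher and 1 cytoskeletal gene higher, and turned SNHG7 to 0.21.

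For the MALAT1 split in usual barcodes (627 higher, 472 lower), plain library size gave 2978 and 137, DESeq2 295 and 197, no filter 760 lower, at least 1% GCG 118 and 91, no replicate block 552 and 347, and leaving out a replicate 384 to 621 and 263 to 391. CACNA1A, not called, turned to 0.38 with plain size and 0.22 with at least 1% GCG and ranged from -0.32 to 0.04 without a replicate, and CHGA, not called, turned to -0.0 with at least 1% GCG and ranged from -0.09 to 0.36 without a replicate. For nucleus-like against usual barcodes (1350, 2786), plain size gave 4243 and 991, DESeq2 500 and 1188, at least 1% GCG 884 higher, no replicate block 1370 and 2946, and leaving out a replicate 88 to 1197 and 769 to 2676. For cytoplasm-like against usual barcodes (2007, 2690), plain size gave 1287 and 4744, DESeq2 1588 lower, no replicate block 2097 and 2867, and leaving out a replicate 440 to 2220 and 838 to 3026. Fewer genes were tested under thinning and the higher gene limit, and fewer sums when a replicate is left out; the cause of the other changes was not tested.

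Of the values of single genes between the sides under all alternatives, 1437 kept their direction and call, 77 lost the call and 1 reversed. Most losses came with the mitochondrial limit at 10% (26), at least 1000 genes (12), without replicate 1 (11) and with DESeq2 (11). Depth limits the low side: a gene with a few UMIs has a counting interval that spans more than 10-fold.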
